A study of Mus musculus with 4 samples.

Results

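The genes described here are the collagen chains of the mouse genome and 16 other genes of the fibrotic extracellular matrix. Every symbol made of Col, a number, the letter a and a number was taken, which gave 44 collagen chains. To these were added Fn1, Postn, Sparc, Thbs1, Thbs4, Cthrc1, Lox, Loxl1, Loxl2, Fbn1, Eln, Tnc, Ccn2, Acta2, Meox1 and Comp. The 60 members are drawn from 32285 genes in the files, and the rule uses names and no measured value. Acta2, a cytoskeletal actin of smooth muscle and myofibroblasts, and Meox1, a transcription factor, are not matrix proteins and are described apart. All 60 members had at least 1 UMI (unique molecular identifier, a count of 1 captured RNA molecule) in the cells kept.

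The study has 4 single-cell libraries, 1 per group, each from the pooled hearts of 5 adult mice of mixed sex. Mice received carboplatin, a DNA-damaging chemotherapy, at 45 mg/kg intraperitoneally 2 times a week for 2 weeks, or the same volume of PBS, and recovered for 4 weeks. A minipump then delivered angiotensin II (AngII, 1.5 mg/kg/d) with PE (50 mg/kg/d), or saline, for 7 days. The mice of all groups had a recovery period and a pump. Strain and genotype are not given in the sources used here, nor is the number of mice of each sex. The sort took CD64+ mononuclear phagocytes (CD45+ CD11b+ Ly6G- and low in Ly6C), and 10000 cells per group were loaded. Fibroblasts and endothelial cells were treated by the study as contamination of that sort and set aside, and they carry most of what follows, so the matrix-making cells are those that passed a gate for phagocytes. With 1 library per group no difference between groups has a replicate check, no test was made, and the intervals in parentheses are exact 95% intervals of counting error alone. PCR and pooling errors are outside them, and the 5 mice of a pool cannot be separated.

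The files hold 27968 barcodes and the filters stated by the study leave 17312, where the study states 38066 and 17438. Each library kept 3484 to 5669 cells with a median of 10593 to 12737 UMIs per cell. Fibroblast-like cells numbered 75, 70, 115 and 92 in the libraries of PBS with saline, carboplatin with saline, PBS with AngII/PE and carboplatin with AngII/PE (library order below), with medians of 16583, 18015.5, 17678 and 17747 UMIs. Endothelial-like cells numbered 598, 555, 304 and 352 and macrophage-like cells 2350, 1550, 2350 and 4012 in the same order. The names were rebuilt from markers that include no member, and may differ from those of the study. Libraries shared 9 to 17 barcodes in pairs. No doublet caller was run.

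Collagens are trimers of alpha chains. Fibrillar chains (types I, III, V and XI) build load-bearing fibres, type IV chains build the sheet of basement membranes, types VI and VIII form microfibrils and short networks, and the FACIT chains (types IX, XII, XIV and XVI among them) sit on fibre surfaces. In the heart, fibroblasts are the main source of fibrillar collagen, capillary endothelium and fibroblasts lay down type IV collagen, and pressure or neurohormonal overload such as AngII infusion is a common model of fibrosis. Matricellular proteins such as periostin and the thrombospondins are secreted into the matrix and act on cells more than as scaffold, and lysyl oxidases cross-link collagen and elastin.

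In fibroblast-like cells most measured matrix genes were higher with AngII/PE. The 60 members together took 1.15% and 1.35% of all fibroblast UMIs under saline (after PBS and after carboplatin, the order of every pair of values below) and 4.19% and 5.05% under AngII/PE. A member was counted as measured when the 2 libraries compared held at least 50 of its UMIs in the cell class, and as higher or lower when its counts per 1000000 UMIs of the class (CPM) differed at least 2-fold. After PBS, 27 of 41 measured members were higher with AngII/PE and 2 were lower, while 5.86% of all measured genes were higher and 4.57% lower. After carboplatin, 27 of 42 were higher and 2 lower, beside 5.23% and 6.34% of all genes. The median log2 ratio of measured members was 1.97 after PBS and 1.69 after carboplatin, and that of all measured genes -0.03 and -0.04. The 2 contrasts use separate libraries, and 25 members were higher in both. Of these, Col8a2, Col9a2, Col11a1, Col12a1, Cthrc1, Lox, Thbs4 and Tnc held under 50 fibroblast UMIs in each saline library. The same held for Col16a1 with PBS and saline and for Comp with carboplatin and saline. Such members were measured only through the AngII/PE library, so the counts lean toward higher members. Col5a1 and Fbn1 passed 2-fold after PBS alone, and Loxl2 and Acta2 after carboplatin alone.

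The difference was spread over cells. In the library of PBS with saline the median fibroblast gave 1.04% of its UMIs to the members and the highest 2.5%, against a median of 4.0% with AngII/PE. Of the 115 AngII/PE fibroblasts after PBS, 112 lay above the saline median and 85 above the highest saline cell. After carboplatin the medians were 1.3% and 4.45%, with 88 of 92 AngII/PE cells above the saline median and 75 above its highest cell of 2.81%. The cell distributions therefore overlapped in their tails only, within libraries whose cells share a pool and a preparation.

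**Figure D1:**
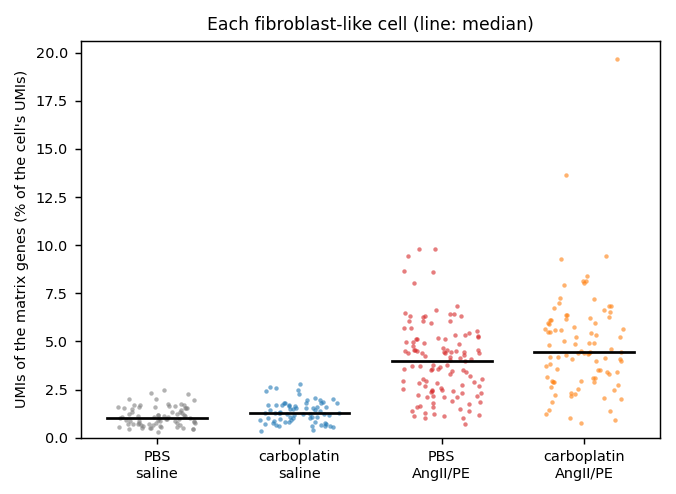
Share of each fibroblast-like cell's UMIs (percent, y axis) that fell on the 60 members, by library (x axis). Each point is a cell and the line is the library's median. Most cells of both AngII/PE libraries sit above every cell of the matching saline library.

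Other values moved with the same libraries. The 10 fibroblast markers, all detected in each library, summed to 40197 and 39426 CPM under saline and 17533 and 19097 CPM under AngII/PE, and without the leading marker of each library (Gsn, or Dcn with carboplatin and AngII/PE) to 16796, 18195, 10625 and 9852 CPM. The 10 macrophage markers, also all detected, summed to 301 and 304 CPM under saline and 648 and 853 CPM under AngII/PE. Mural markers, those of pericytes and smooth muscle, ranged from 207 to 343 CPM, with Vtn at 0 in both PBS libraries. The 12 immediate-early and heat-shock genes that respond to tissue handling summed to 7841 and 8955 CPM under saline and 3913 and 3991 CPM under AngII/PE. Fibroblasts called female from Xist against Y-linked genes numbered 35, 20, 12 and 45 in library order, and those called male 26, 37, 80 and 36. The part of any of these in the differences below was not tested, except that values split by sex are given.

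Among the fibrillar chains, type I and type III collagen and the type V chain Col5a2 were higher with AngII/PE. Col1a1, the chain present as a pair in type I collagen, read 684 and 917 CPM under saline and 4694 and 5088 CPM under AngII/PE, ratios of 6.87 (6.39 to 7.38) after PBS and 5.55 (5.21 to 5.91) after carboplatin. Its partner Col1a2 read 943 and 1338 CPM under saline and 4345 and 5315 CPM under AngII/PE, ratios of 4.61 (4.33 to 4.91) after PBS and 3.97 (3.77 to 4.19) after carboplatin. Col3a1, whose homotrimer is the finer fibre that mixes with type I, read 1272 and 2028 CPM under saline and 4902 and 6380.2 CPM under AngII/PE, 3.85 after PBS and 3.15 after carboplatin. For all 3 genes both AngII/PE libraries lay above both saline libraries.

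Type V and XI chains start fibres and set their width. Col5a2 read 346 and 398 CPM under saline and 1609.9 and 1618 CPM under AngII/PE, ratios of 4.65 (4.2 to 5.17) after PBS and 4.06 (3.69 to 4.49) after carboplatin. Col5a1 read 290.2 and 334 CPM under saline and 605 and 613 CPM under AngII/PE, just past 2-fold after PBS (2.08, interval 1.85 to 2.36) and just short of it after carboplatin (1.83, interval 1.63 to 2.06). The third type V chain, Col5a3, read 147 and 190.4 CPM under saline and 162 and 123 CPM under AngII/PE, ratios of 1.1 (0.911 to 1.33) after PBS and 0.647 (0.532 to 0.785) after carboplatin, so that the 3 partners had unequal ratios. Col11a1 gave 1, 1, 98 and 92 UMIs in library order, or 0.832, 0.821, 51.7 and 56.9 CPM. Its ratio of 62.1 (10.9 to 2478) after PBS rests on 1 saline UMI and is wide for that reason.

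The balance of the type I chains also differed. The UMI ratio of Col1a1 to Col1a2 in fibroblast-like cells was 0.725 (0.662 to 0.794) and 0.685 (0.634 to 0.74) under saline, and 1.08 (1.05 to 1.11) and 0.957 (0.929 to 0.987) under AngII/PE. The saline intervals do not meet those of AngII/PE. Both are counts of 3′ ends, and Col1a2 (chr6:4504814-4541544 in mm10) overlaps the annotated gene Gm43921 on its own strand, so its count is uncertain to that extent.

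**Figure D2:**
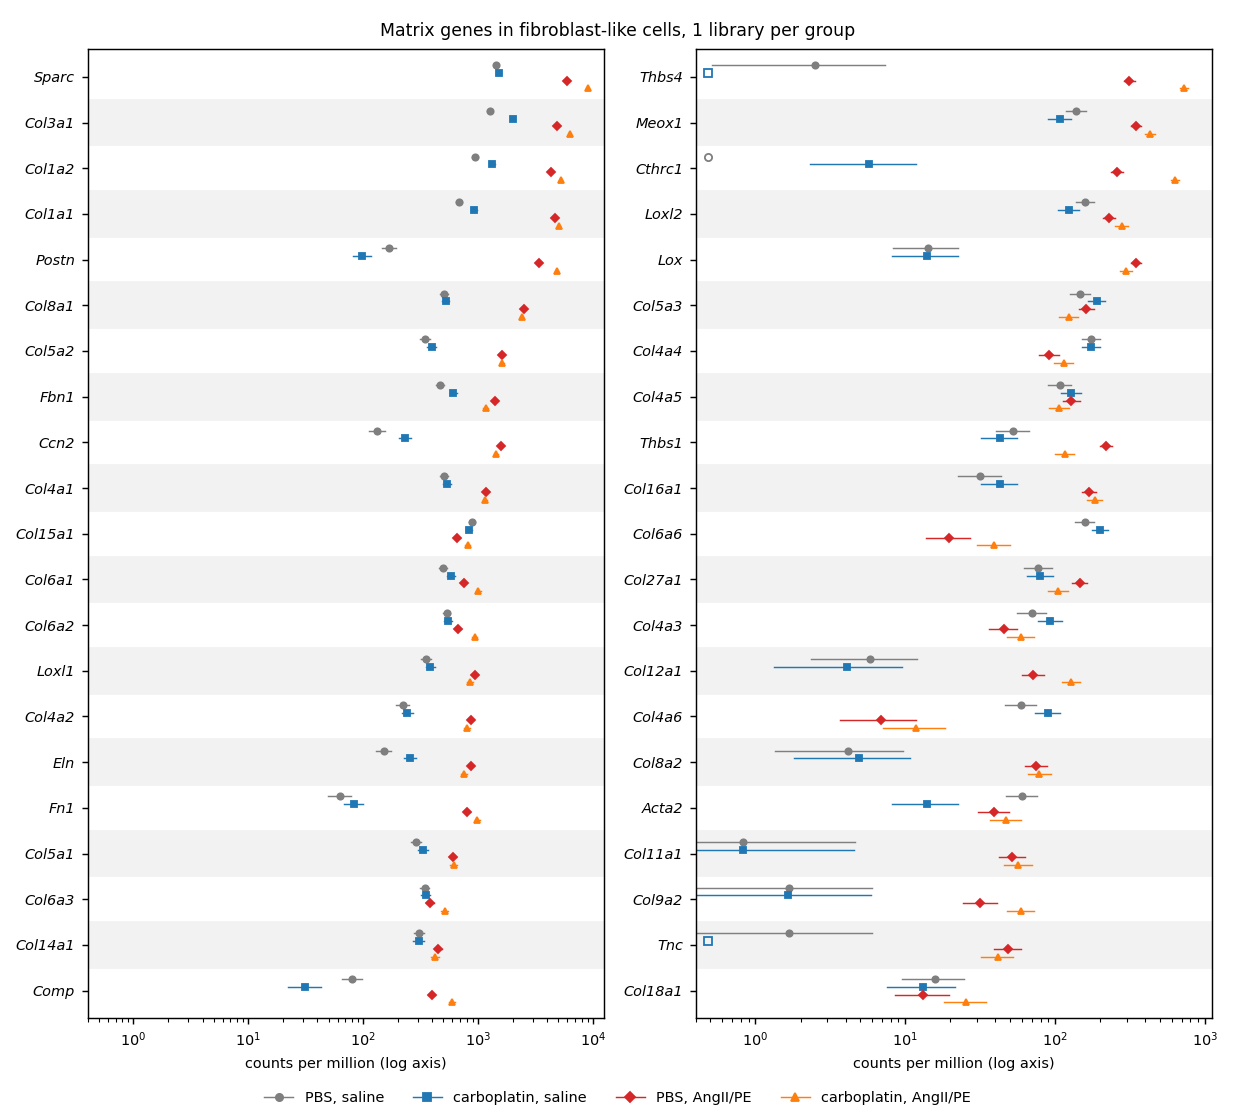
CPM of 42 members in fibroblast-like cells (log axis), 1 symbol per library with its exact 95% counting interval as a line. Open symbols at the left edge mark 0 UMIs. For most genes both AngII/PE symbols lie to the right of both saline symbols, and for Col4a6 and Col6a6 they lie to the left.

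Since many members were higher together, the sequence just before their starts is shown for a few. RefSeq (GRCm38.p6, the assembly of mm10) gave a window of 250 bases upstream of its own start for 41 of the 60 members. For Col1a2, Col25a1, Col27a1, Fbn1 and Sparc that window lay wholly inside the annotated gene, and for some others in part. Each window was searched on both strands for CAGAC, which reads GTCTG on the other strand, the core that SMAD proteins, the mediators of TGF-beta signalling, bind. It stood in 18 of the 41 member windows (43.9%), and in 42.2% of all 32851 RefSeq windows of the same length. Of the 27 members higher with AngII/PE after PBS, 15 had a window and 9 of these held it, and of the 27 after carboplatin, 9 of 14. Both counts include Col1a2 and Sparc, whose 1 match each lies inside the annotated gene. A match is a description of the letters and not a binding site.

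The windows below read 5′ to 3′ on the gene's strand, with each CAGAC or GTCTG in capitals. Postn (chr3:54360857-54361106, plus strand) and Thbs4 (chr13:92794819-92795068, minus strand) are matricellular genes that were higher, Col3a1 (chr1:45311288-45311537, plus strand) and Col11a1 (chr3:114030290-114030539, plus strand) are fibrillar chains that were higher, and Col6a6 (chr9:105828161-105828335, minus strand) and Col4a6 (chrX:141474077-141474326, minus strand) are the chains that were lower. The Col6a6 window is cut to its 175 bases outside the annotated gene.
Postn: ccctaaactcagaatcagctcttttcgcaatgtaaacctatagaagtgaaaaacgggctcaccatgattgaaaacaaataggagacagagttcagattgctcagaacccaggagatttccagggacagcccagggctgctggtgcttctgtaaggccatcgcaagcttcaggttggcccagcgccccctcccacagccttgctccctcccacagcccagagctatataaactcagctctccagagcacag
Thbs4: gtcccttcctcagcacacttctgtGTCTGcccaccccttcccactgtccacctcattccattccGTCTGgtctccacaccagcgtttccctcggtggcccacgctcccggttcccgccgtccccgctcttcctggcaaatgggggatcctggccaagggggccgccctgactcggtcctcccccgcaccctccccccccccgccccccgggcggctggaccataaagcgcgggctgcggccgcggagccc
Col3a1: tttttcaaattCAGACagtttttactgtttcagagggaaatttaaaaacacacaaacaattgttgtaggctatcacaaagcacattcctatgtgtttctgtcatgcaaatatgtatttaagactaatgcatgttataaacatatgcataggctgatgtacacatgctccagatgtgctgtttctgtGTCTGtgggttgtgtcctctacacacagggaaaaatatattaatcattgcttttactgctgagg
Col11a1: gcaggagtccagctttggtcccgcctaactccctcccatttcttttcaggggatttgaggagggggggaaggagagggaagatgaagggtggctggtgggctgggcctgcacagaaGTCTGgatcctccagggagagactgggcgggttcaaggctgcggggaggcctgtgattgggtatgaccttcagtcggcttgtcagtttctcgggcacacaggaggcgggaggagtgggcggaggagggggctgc
Col6a6: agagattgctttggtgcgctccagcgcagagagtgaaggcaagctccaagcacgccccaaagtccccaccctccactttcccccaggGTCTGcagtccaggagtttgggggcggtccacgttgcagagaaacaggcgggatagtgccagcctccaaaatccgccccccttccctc
Col4a6: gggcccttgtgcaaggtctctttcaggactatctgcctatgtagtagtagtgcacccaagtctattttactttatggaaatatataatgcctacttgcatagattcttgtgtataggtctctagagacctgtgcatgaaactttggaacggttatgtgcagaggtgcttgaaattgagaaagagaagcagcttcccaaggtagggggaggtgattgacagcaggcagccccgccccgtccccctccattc
Thbs4 and Col3a1 held the letters 2 times each, Col11a1 and Col6a6 1 time each, and Postn and Col4a6 at no place in the printed bases. The letters thus stood before genes that were higher and a gene that was lower.

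The type IV chains of basement membranes differed in opposite directions. Col4a1 read 504 and 535 CPM under saline and 1165 and 1156 CPM under AngII/PE, ratios of 2.31 (2.11 to 2.53) after PBS and 2.16 (1.98 to 2.37) after carboplatin. Col4a2, its partner in the ubiquitous network, read 220.4 and 243 CPM under saline and 862 and 805 CPM under AngII/PE, ratios of 3.91 (3.43 to 4.47) after PBS and 3.31 (2.92 to 3.77) after carboplatin. Col4a6 read 59 and 89.5 CPM under saline and 6.85 and 11.8 CPM under AngII/PE on 71, 109, 13 and 19 UMIs. Its ratios of 0.116 (0.0589 to 0.211) after PBS and 0.131 (0.0762 to 0.215) after carboplatin make it one of the 2 members lower with AngII/PE in both contrasts. Col4a3, Col4a4 and Col4a5, named here after their values were seen, stayed within 2-fold: Col4a3 had ratios of 0.649 after PBS and 0.634 after carboplatin, Col4a4 of 0.527 after PBS and 0.657 after carboplatin and Col4a5 of 1.2 after PBS and 0.831 after carboplatin. The ratio of Col4a1 to Col4a2 UMIs was 2.29 and 2.2 in the saline libraries, above the 1.35 and 1.44 of the AngII/PE libraries.

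These 6 genes lie in head-to-head pairs, each pair read outward from a shared start region. In mm10, Col4a1 (chr8:11198423-11312826, minus strand) and Col4a2 (chr8:11312805-11449287, plus strand) overlap by 22 bases at their starts, and Col4a5 (chrX:141475385-141689234, plus strand) and Col4a6 (chrX:141165403-141474076, minus strand) stand 1308 bases apart. Col4a4 (chr1:82448423-82586849, minus strand) and Col4a3 (chr1:82586921-82722059, plus strand) are separated by 71 bases, chr1:82586850-82586920, with 69% G and C and no CAGAC or GTCTG, shown because it lies before both genes:
Col4a3 and Col4a4: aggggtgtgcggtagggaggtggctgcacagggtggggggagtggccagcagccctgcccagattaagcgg
The strand printed is the minus strand. Within the first pair both genes were higher, within the Col4a3 and Col4a4 pair both were within 2-fold, and in the pair on the X chromosome Col4a6 was lower while Col4a5 was within 2-fold.

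The network-forming type VIII chains, expressed by remodelling vessel walls and heart, were higher. Col8a1 read 508 and 523 CPM under saline and 2538 and 2408 CPM under AngII/PE, ratios of 5.0 (4.59 to 5.44) after PBS and 4.61 (4.23 to 5.02) after carboplatin. Col8a2 read 4.16 and 4.92 CPM under saline and 74.9 and 78.6 CPM under AngII/PE, ratios of 18 after PBS and 16 after carboplatin. The type VI chains, which form beaded microfibrils, stayed within 2-fold. Col6a1 had ratios of 1.51 after PBS and 1.73 after carboplatin, Col6a2 of 1.27 after PBS and 1.71 after carboplatin and Col6a3 of 1.11 after PBS and 1.46 after carboplatin. Col6a6, an alternative to Col6a3 in the trimer, went the other way: it read 158 and 200.3 CPM under saline and 19.5 and 39 CPM under AngII/PE, ratios of 0.123 (0.0843 to 0.176) after PBS and 0.195 (0.145 to 0.258) after carboplatin. Col6a6 and Col4a6 are the 2 members that were lower in both contrasts, and neither AngII/PE library reached a saline library.

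The fibre-surface chains were uneven. Col12a1, a FACIT chain of tendon and scar, read 5.82 and 4.1 CPM under saline and 71.7 and 127 CPM under AngII/PE, ratios of 12.3 (5.82 to 31.2) after PBS and 31.1 (13.1 to 96.7) after carboplatin. Col16a1 read 31.6 and 42.7 CPM under saline and 169 and 184 CPM under AngII/PE, ratios of 5.35 after PBS and 4.31 after carboplatin, and Col9a2, known from cartilage, read 1.66 and 1.64 CPM under saline and 31.6 and 59.4 CPM under AngII/PE, ratios of 19 after PBS and 36.2 after carboplatin. Col12a1, Col9a2 and Col11a1 were each under 10 UMIs in both saline libraries. Col14a1 read 309 and 304 CPM under saline and 452 and 425 CPM under AngII/PE and Col15a1, a basement-membrane zone collagen, 881 and 842 CPM under saline and 655 and 811 CPM under AngII/PE, and neither reached 2-fold.

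Enzymes that cross-link the matrix differed in the same direction. Lox, the founding lysyl oxidase, read 14.1 and 14 CPM under saline and 349 and 296 CPM under AngII/PE, ratios of 24.7 (15.3 to 42.6) after PBS and 21.2 (13.1 to 36.8) after carboplatin. Loxl1, which acts mainly on elastin, read 355 and 385 CPM under saline and 935 and 851 CPM under AngII/PE, ratios of 2.63 after PBS and 2.21 after carboplatin. Loxl2 read 159 and 124 CPM under saline and 229 and 278 CPM under AngII/PE, under 2-fold after PBS (1.44, interval 1.21 to 1.72) and above it after carboplatin (2.24, interval 1.86 to 2.71). Of 21 genes of collagen processing (prolyl and lysyl hydroxylases, chaperones, propeptide cleavage), 20 were measured, with 6 higher and 1 lower after PBS and 8 higher and 0 lower after carboplatin. Their median log2 ratios were 0.58 and 0.85, against -0.03 and -0.04 over all measured genes. Of all measured genes 5.86% were higher and 4.57% lower after PBS, and 5.23% and 6.34% after carboplatin.

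Among the prolyl hydroxylase subunits P4ha3 was at or near 0 under saline. P4ha3 had 0 UMIs after PBS and 1 after carboplatin under saline, and 44.3 and 36.5 CPM under AngII/PE. P4ha1, a subunit induced by hypoxia in many cells, read 264 CPM with PBS and saline and 99.6 CPM with PBS and AngII/PE, a ratio of 0.377 (0.313 to 0.452). After carboplatin P4ha1 read 166 and 137 CPM, a ratio of 0.825 (0.678 to 1.0), within 2-fold. The prolyl 3-hydroxylase P3h2 had ratios of 5.82 (3.74 to 9.49) after PBS and 2.71 (1.85 to 4.07) after carboplatin.

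Among the widest differences were those of secreted glycoproteins of the injured heart. Postn, periostin, a marker of activated fibroblasts, read 168 and 97.7 CPM under saline and 3383 and 4845 CPM under AngII/PE, ratios of 20.1 (17.5 to 23.3) after PBS and 49.6 (41.4 to 60) after carboplatin. It was detected in 18.7% and 15.7% of saline fibroblasts and 93% and 90.2% of AngII/PE fibroblasts. Cthrc1, a secreted protein that marks collagen-rich fibroblasts, had 0, 7, 490 and 1022 UMIs in library order, or 0, 5.75, 258 and 632 CPM. With 0 UMIs after PBS under saline, set at a floor of 3 UMIs for that library, the AngII/PE level was at least 103.5-fold higher, and after carboplatin the ratio was 110.1 (53.2 to 274). Thbs4, a thrombospondin induced in loaded heart and tendon, had 3, 0, 595 and 1169 UMIs. Its ratio after PBS was 126 (42.8 to 611), and after carboplatin, against the same floor, it was at least 293.7-fold higher.

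UMIs of Cthrc1 and Thbs4 were found in a part of the cells. Cthrc1 was detected in 49.6% of the AngII/PE fibroblasts after PBS and 58.7% after carboplatin, and Thbs4 in 37.4% and 43.5%, at nearly the same median depth. Thinned to 2000 UMIs, which left out 5 and 1 cells, the shares were 25.7% and 33.9% for Cthrc1 and 21.5% and 27.3% for Thbs4, and a cell without a UMI may still hold the transcript. For comparison, Col1a1 was detected in 94.7% or more of the fibroblasts of each library. Tnc, tenascin C, of tissue repair, was at 2, 0, 92 and 67 UMIs, a ratio of 29.2 (7.85 to 244) after PBS, and at least 16.8-fold higher after carboplatin against the floor.

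Fn1, fibronectin, the provisional matrix on which collagen is laid, read 63.2 and 82.9 CPM under saline and 809 and 988 CPM under AngII/PE, ratios of 12.8 (10.2 to 16.3) after PBS and 11.9 (9.74 to 14.7) after carboplatin. Sparc, a collagen-binding protein, read 1433 and 1520.1 CPM under saline and 5982 and 9119 CPM under AngII/PE, ratios of 4.18 after PBS and 6.0 after carboplatin. Ccn2, the matricellular growth factor also called CTGF and a target of TGF-beta and YAP, read 132 and 233 CPM under saline and 1574 and 1446 CPM under AngII/PE, ratios of 11.9 (10.1 to 14.1) after PBS and 6.2 (5.48 to 7.04) after carboplatin. In all 3 genes the AngII/PE libraries lay above both saline libraries. Thbs1, a thrombospondin that activates latent TGF-beta, had ratios of 4.18 after PBS and 2.73 after carboplatin.

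Elastic-fibre genes were also higher. Eln, elastin, read 151 and 257 CPM under saline and 865 and 759 CPM under AngII/PE, ratios of 5.72 (4.9 to 6.7) after PBS and 2.95 (2.61 to 3.35) after carboplatin. Fbn1, the fibrillin of microfibrils, read 465 and 611 CPM under saline and 1410.1 and 1169 CPM under AngII/PE, ratios of 3.03 after PBS and 1.91 after carboplatin, short of 2-fold after carboplatin. Comp, a pentameric thrombospondin of cartilage and tendon, read 80.7 and 31.2 CPM under saline and 396 and 593 CPM under AngII/PE, ratios of 4.91 (3.97 to 6.13) after PBS and 19 (13.7 to 27) after carboplatin. In the carboplatin saline library 1 cell held 65.8% of the Comp UMIs, so that library's level rests largely on it.

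Of the 2 members that are not matrix proteins, Meox1, a transcription factor induced in stressed cardiac fibroblasts, was higher and Acta2, the actin of myofibroblasts, was not higher in both contrasts. Meox1 read 138 and 108 CPM under saline and 345 and 430.0 CPM under AngII/PE, ratios of 2.5 (2.1 to 2.98) after PBS and 4.0 (3.31 to 4.86) after carboplatin. Acta2 had 72, 17, 74 and 76 UMIs, 59.9, 14, 39 and 47 CPM, ratios of 0.651 (0.465 to 0.914) after PBS and 3.37 (1.97 to 6.08) after carboplatin. A single cell held 41.7%, 52.9%, 36.5% and 15.8% of those UMIs in library order, and Acta2 is strong in mural cells, whose markers are given above. No direction across libraries can be read from so few cells.

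Other genes of fibroblast activation and TGF-beta signalling, 29 in a list chosen with earlier results of these data known, were also often higher. After PBS 14 of 27 measured were higher and 0 lower, beside 5.86% and 4.57% of all measured genes. After carboplatin 14 of 28 were higher and 3 lower, beside 5.23% and 6.34%. Median log2 ratios were 1.08 and 1.11, against -0.03 and -0.04 over all genes. Angptl4 was among those lower after carboplatin, at 0.268 (0.155 to 0.448). Ltbp2, a binding protein of the latent TGF-beta family, went from 9.98 to 493 CPM after PBS, a ratio of 49.4 (28.1 to 95.9). Cilp, an antagonist of TGF-beta in matrix, went from 32.8 to 1421 CPM after carboplatin, a ratio of 43.3 (31.7 to 60.7). Scx, a transcription factor of tendon and of collagen genes, had 0 UMIs in both saline libraries and 44.8 and 105 CPM under AngII/PE.

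The partners of collagen were less uniform. Of 10 small and large proteoglycans, 3 were higher and 0 lower in each contrast, namely Fmod, Aspn and Bgn, all of which bind collagen fibres. Fmod had ratios of 10.5 (5.88 to 20.7) and 48.8 (20.7 to 151). The list's median log2 ratios were 0.22 and -0.18, against -0.03 and -0.04 over all measured genes. Beside this and the next 2 lists, 5.86% of all measured genes were higher and 4.57% lower after PBS, and 5.23% and 6.34% after carboplatin. Of 9 measured laminin, nidogen and related basement-membrane genes, none was higher and Lama4, a laminin chain of vessel walls, was lower in each, at 0.428 and 0.487. Of 8 measured collagen receptors, Itga1 was higher after PBS (2.04, interval 1.5 to 2.79) and Ddr2, a kinase that senses fibrillar collagen and one of the 10 fibroblast markers, was lower after carboplatin (0.478, interval 0.406 to 0.562).

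Both contrasts agreed in direction for nearly all members, with each contrast drawn from its own pair of libraries. Of the 38 members measured in fibroblast-like cells in both and free of zeros, Acta2 was the member past 2-fold in one contrast with a ratio on the other side of 1 in the other. The ratio after carboplatin was the larger for Postn (49.6 against 20.1) and Comp (19 against 4.91), and the smaller for Ccn2 (6.2 against 11.9) and Eln (2.95 against 5.72). For these 4 genes the counting intervals of the 2 contrasts do not meet. Among the intervals given above, those of Col1a1, Col1a2, Col5a3, Loxl2, Meox1 and Acta2 do not meet either. The Comp interval leaves out that 1 cell held most of its UMIs with carboplatin and saline. Whether mice of 1 group would differ as much cannot be told from 1 library each.

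**Figure D3:**
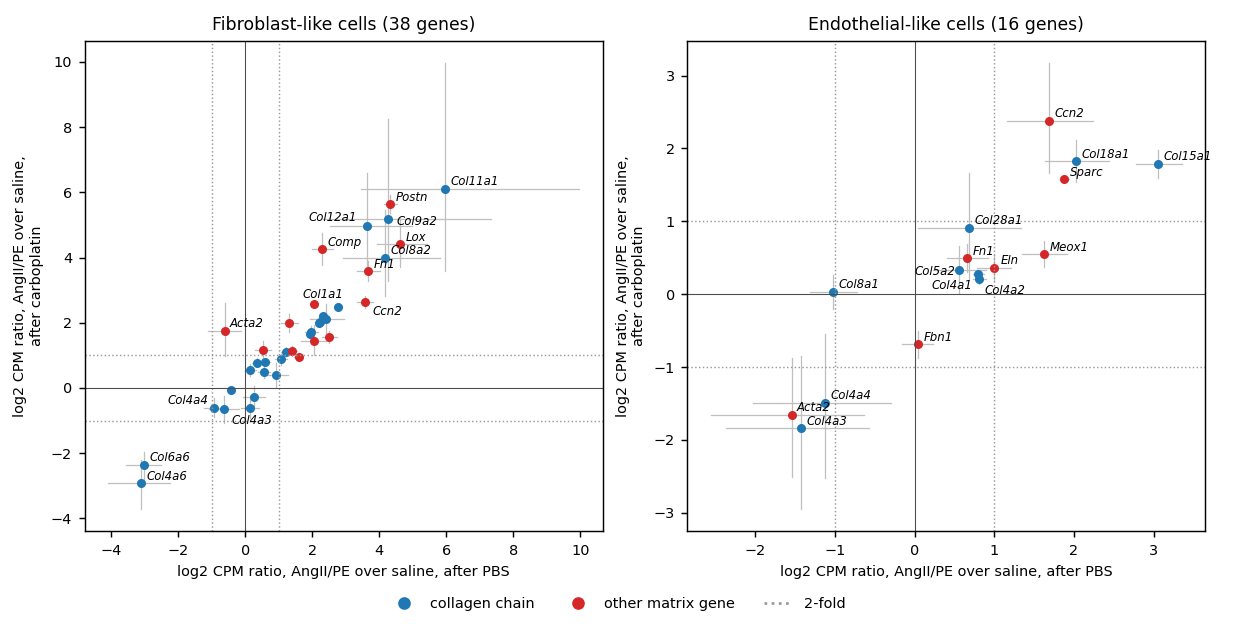
Log2 CPM ratio of AngII/PE over saline after PBS (x axis) and after carboplatin (y axis) for 38 members in fibroblast-like cells and 16 in endothelial-like cells. Points are genes, grey lines exact 95% counting intervals and dotted lines 2-fold. In fibroblast-like cells most genes lie in the upper right and Acta2 in the upper left, and in endothelial-like cells the points are fewer and closer to 0.

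Some of these ratios differed between female-called and male-called cells, and the shares of cells called male differed between the libraries as given above. For Col1a1 after PBS the ratio was 5.57 (5.02 to 6.18) in female-called and 13.6 (11.5 to 16.2) in male-called fibroblasts, and after carboplatin 5.3 (4.74 to 5.96) and 4.54 (4.17 to 4.96). For Col3a1 after PBS it was 3.23 (2.98 to 3.5) and 11.4 (9.85 to 13.4). For Postn it was 15.3 (12.9 to 18.1) and 57.9 (38.6 to 91.5) after PBS, and 20.7 (16.5 to 26.4) and 183 (116 to 309) after carboplatin. All of these ratios stayed above 2-fold in either sex. Col4a1 after PBS was at 1.17 (0.957 to 1.42) in female-called and 3.99 (3.34 to 4.8) in male-called cells, and Thbs1 after carboplatin at 1.11 (0.72 to 1.75) and 4.35 (2.65 to 7.48), so both passed 2-fold in male-called cells only. In female-called cells alone 17 of 32 measured members were higher after PBS, beside 6.04% of all genes, against 27 of 41 in all cells, and the 2 libraries then held 35 and 12 such cells. The saline libraries hold 20 to 37 cells of each sex, from an unknown number of the 5 pooled mice. Sex therefore cannot be told apart from single mice, and its part was not tested.

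Carboplatin on its own gave few members at this threshold. Under saline, 0 of 33 measured members were at least 2-fold higher in the carboplatin library than in the PBS library and 2 were lower, beside 1.04% and 0.982% of all measured genes. The lower members were Comp (0.387, interval 0.258 to 0.568) and Acta2 (0.233, interval 0.129 to 0.399), both with many of their UMIs in a single cell. Col3a1 (1.6), Col1a1 (1.34), Eln (1.7) and Ccn2 (1.76) were above 1 and under 2-fold. In male-called cells alone 12 of 29 measured members passed 2-fold, beside 4.11% of all genes measured in those cells, among them Col3a1 (4.88, interval 4.16 to 5.74) and Col1a1 (2.92, interval 2.43 to 3.53), and in female-called cells 1 of 31 did, beside 2.01% of all genes, with Col3a1 at 1.17 (1.07 to 1.28).

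Under AngII/PE, 2 of 41 measured members were higher in the carboplatin library and 0 were lower, beside 0.906% and 1.29% of all genes. The higher members were Thbs4 (2.31, interval 2.09 to 2.55) and Cthrc1 (2.45, interval 2.2 to 2.73). Thbs4 did not hold in female-called cells, where its ratio was 0.953 (0.792 to 1.15) against 2.62 (2.27 to 3.03) in male-called cells, while Cthrc1 was at 2.21 (1.7 to 2.9) and 2.18 (1.86 to 2.55). With each cell weighted equally, in place of by its UMIs, both were under 2-fold. Postn, at 1.43 (1.39 to 1.48), stayed under it. These contrasts share libraries with those of AngII/PE over saline, so they are not separate evidence.

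Not every collagen was seen. In the contrast after PBS 19 members held under 50 UMIs over the 2 fibroblast libraries, 5 of them at 0 in both, and after carboplatin 18 did, with 8 at 0 in both. Of the 60 members, 42 were measured in at least 1 of these contrasts, and 49 in fibroblast-like, endothelial-like or macrophage-like cells. The remaining 11, with 2 to 141 UMIs over all kept cells, were Col2a1, Col6a4, Col6a5, Col7a1, Col9a1, Col10a1, Col17a1, Col19a1, Col22a1, Col24a1 and Col26a1, several of them chains of cartilage, skin or nerve. Their differences were not detectable at this depth. A member low under saline could be measured only through its AngII/PE library, as Col11a1, Cthrc1, Thbs4 and the others named with the counts above were. Counts over measured members therefore lean toward those that differ.

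In endothelial-like cells fewer members were measured than in fibroblast-like cells, and Sparc, Col4a1 and Col4a2 were the highest. The members took 0.272% and 0.416% of endothelial UMIs under saline and 0.658% and 0.771% under AngII/PE. After PBS, 7 of 19 measured members were higher with AngII/PE and 5 lower, beside 3.91% and 4.04% of all genes. The 7 include Col3a1, which is set beside a fibroblast reference below. After carboplatin, 4 of 17 were higher and 3 lower, beside 4.02% and 2.83%. Median log2 ratios were 0.80 and 0.34, against -0.04 and -0.01 over all genes. The median depth of these cells was 5869 and 6412 UMIs under saline and 9909 and 10026 under AngII/PE, and its part was not tested. A finer clustering, at resolution 1.2, placed most of these cells in different clusters by pump: a cluster led by Cyyr1 held 532, 432, 88 and 85 of them in library order and a cluster led by Gpihbp1 11, 22, 192 and 230, so the ratios below compare different mixtures of endothelial clusters.

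The non-fibrillar collagens of vessel walls were among the higher members. Col15a1, of the basement-membrane zone, read 28.2 and 68.5 CPM under saline and 236 and 236 CPM under AngII/PE, ratios of 8.34 (6.87 to 10.2) after PBS and 3.45 (3.02 to 3.95) after carboplatin. Col18a1, the parent of endostatin, read 16.4 and 31 CPM under saline and 67.1 and 109.9 CPM under AngII/PE, ratios of 4.09 (3.11 to 5.44) after PBS and 3.54 (2.9 to 4.35) after carboplatin. Sparc read 894 and 1417 CPM under saline and 3288 and 4235 CPM under AngII/PE, ratios of 3.68 (3.55 to 3.82) after PBS and 2.99 (2.9 to 3.08) after carboplatin. For all 3 genes both AngII/PE libraries lay above both saline libraries. Ccn2, low in these cells, read 9.89 and 4.6 CPM under saline and 31.9 and 23.9 CPM under AngII/PE, ratios of 3.23 after PBS and 5.2 after carboplatin.

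Col4a1 and Col4a2, the main type IV chains of capillaries, stayed under 2-fold. Col4a1 read 758 and 1185 CPM under saline and 1321 and 1432 CPM under AngII/PE, ratios of 1.74 (1.66 to 1.82) after PBS and 1.21 (1.16 to 1.26) after carboplatin. Col4a2 read 523 and 809.6 CPM under saline and 919 and 935 CPM under AngII/PE, ratios of 1.76 after PBS and 1.15 after carboplatin. The UMI ratio of Col4a1 to Col4a2 ran from 1.44 to 1.53 over the 4 libraries, close to the 1.35 and 1.44 of AngII/PE fibroblasts. The rarer chains Col4a3 and Col4a4 were lower in both contrasts: Col4a3 read 11.8 and 9.93 CPM under saline and 4.4 and 2.77 CPM under AngII/PE and Col4a4 10.9 and 9.2 CPM under saline and 4.98 and 3.28 CPM under AngII/PE. Weighting every cell equally put the Col4a4 log2 ratio after PBS above 0, so its direction there changed with that weighting.

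Other endothelial members were uneven. Meox1 read 36.2 and 105 CPM under saline and 112 and 153 CPM under AngII/PE, with ratios of 3.09 (2.55 to 3.76) after PBS and 1.46 (1.29 to 1.66) after carboplatin. Its ratio of carboplatin over PBS under saline was 2.9 (2.4 to 3.51). Col15a1 shared that pattern, at 2.43 (1.95 to 3.04) under saline. Col8a1 was lower after PBS (0.493, interval 0.401 to 0.603) and near 1 after carboplatin (1.02, interval 0.871 to 1.2). Acta2 read 11.1 and 14.3 CPM under saline and 3.81 and 4.54 CPM under AngII/PE, and mural markers in the same cells summed to 126, 235, 184 and 83.9 CPM in library order, with Cspg4 and Vtn at 0 with carboplatin and AngII/PE. The part of mural RNA was not tested. Col25a1 (0.353, interval 0.189 to 0.626) was lower after PBS, and Col13a1 (9.37, interval 4.25 to 24.4) was higher.

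Fibrillar collagen in endothelial-like cells was low. Col3a1 read 1.45 and 0.726 CPM under saline and 18.2 and 6.3 CPM under AngII/PE, against 1272 CPM or more in fibroblast-like cells, and fibroblast markers in the endothelial-like cells summed to 50.4, 123, 182 and 75.6 CPM in library order, with Tcf21 at 0 in the PBS saline library and Dpt at 0 in the PBS AngII/PE library. Across 19 or 20 fibroblast genes that are no members, the median endothelial level was 0.138, 0.256, 0.529 and 0.433% of the fibroblast level. Col3a1, one of the 7 members counted as higher after PBS, lay under this median in each library. It was thus not told apart from free fibroblast RNA. Col4a1 and Col4a2 stood at more than 100% of the fibroblast level in all 4 libraries. Of 18 measured collagen-processing genes, 6 were higher with AngII/PE after PBS and 3 after carboplatin, beside 3.91% and 4.02% of all genes, and none was lower. Carboplatin over PBS in these cells left 2 members higher and 2 lower of 18 under saline (0.933% and 1.52% of all genes), and 0 higher and 2 lower of 16 under AngII/PE (1.16% and 0.767%). Fkbp10, a collagen chaperone of the processing list, had ratios of AngII/PE over saline of 8.67 (3.91 to 22.7) after PBS and 7.81 (4.02 to 16.9) after carboplatin.

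**Figure D4:**
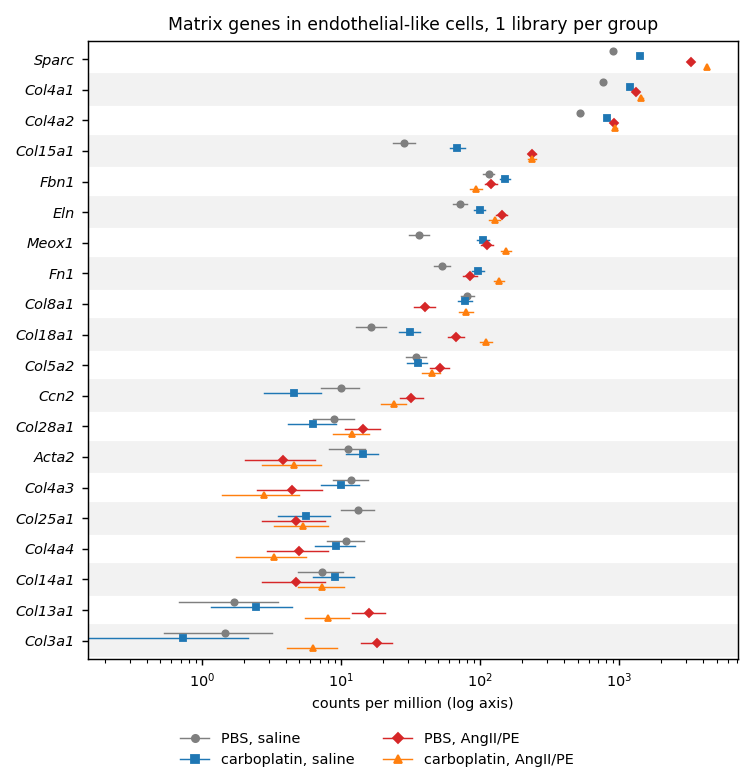
CPM of 20 members in endothelial-like cells (log axis), 1 symbol per library with its exact 95% counting interval as a line. Sparc, Col15a1 and Col18a1 have both AngII/PE symbols to the right of both saline symbols, while the Col4a1 and Col4a2 symbols lie close together.

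Macrophage-like cells, the intended target of the sort, held few member UMIs, and most members lay within the range of a fibroblast reference there. The members took 0.0185% and 0.0166% of macrophage UMIs under saline and 0.0309% and 0.0271% under AngII/PE. By the same 2-fold rule, 18 of 28 measured members were higher with AngII/PE after PBS and 2 lower, beside 5.26% and 7.02% of all genes, and 19 of 30 were higher after carboplatin and 0 lower, beside 3.87% and 5.8%. Members low under saline could be measured here only through the AngII/PE library, so these counts lean toward higher members. Between the 2 saline libraries 13 members were measured. In droplet libraries free RNA from one cell type is counted in others. Each member's macrophage level was therefore set beside its fibroblast level, with 19 or 20 fibroblast genes that are no members as a reference.

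The reference genes had a median macrophage level of 0.0805, 0.13, 0.268 and 0.247% of the fibroblast level in library order, and the highest of them 0.866, 0.711, 3.27 and 4.92%, which was Gpx3 in the first library and Gsn in the others. The next highest stood at 0.506, 0.448, 2.34 and 3.0%. The limit thus rests on 1 gene per library and lay higher under AngII/PE. Gsn read 226 and 264 CPM in macrophage-like cells under AngII/PE, where the fibroblast markers without it summed to 20.7 and 22 CPM. A member under so wide a limit is not thereby shown to be free RNA. Of the 18 members higher in macrophages after PBS, 17 lay at or under the highest reference, at 0.0923 to 2.39% (median 0.214%) of the fibroblast level, and so were not told apart from free RNA by this limit. After carboplatin 17 of 19 did, at 0.0781 to 0.737% (median 0.166%). Postn is an example: it read 0.336 and 0.205 CPM under saline and 8.69 and 8.4 CPM under AngII/PE, or 0.20, 0.209, 0.257 and 0.173% of the fibroblast level in library order, beside the reference medians above.

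Postn UMIs were found in each of these macrophage clusters and in B-cell-like cells. In the 5 macrophage clusters with at least 100 cells of the PBS AngII/PE library Postn ranged from 7.71 to 20.5 CPM. It was detected in 0.426, 0.323, 11.1 and 10.1% of macrophage-like cells in library order, and in 0, 0.518, 11.1 and 4.65% of B-cell-like cells. Macrophage-like cells had medians of 13296.5, 15454, 14337 and 13911.5 UMIs, and B-cell-like cells of 10672.5, 8601, 10803 and 13365 UMIs. Cthrc1 was detected in 0, 0, 2.78 and 0% of B-cell-like cells, against the 49.6% and 58.7% of AngII/PE fibroblasts. Fibroblast markers other than Gsn summed to 12.6, 20.5, 20.7 and 22 CPM in macrophage-like cells.

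Col14a1, Fn1 and Thbs1 stood above the reference in all 4 libraries. Col14a1 read 92.9 and 106 CPM under saline and 81 and 88.7 CPM under AngII/PE, 30.1, 34.7, 17.9 and 20.9% of the fibroblast level in library order. Macrophage-like cells held 73.8% of all Col14a1 UMIs of the PBS saline library against 9.01% in fibroblast-like cells. Of all 48040678 UMIs kept there, macrophage-like cells held 32722753 and fibroblast-like cells 1202464. The macrophage share of Col14a1 was thus near that of all UMIs, and its fibroblast share was above that of all UMIs. Col14a1 was within 2-fold in both AngII/PE contrasts. Detection was 44.4, 49, 48.3 and 50.2% of macrophage-like cells, and 14.5, 16.2, 14 and 15% when each cell was thinned to 2000 UMIs, which left out 23, 10, 20 and 26 shallower cells. In B-cell-like cells it was 16.2, 14, 29.2 and 37.2%, and those cells also read 5420.0, 6964, 8445 and 10534 CPM of macrophage markers in library order, a part that was not tested.

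Fn1 in macrophage-like cells read 34.1 and 12.1 CPM under saline and 62.7 and 52.7 CPM under AngII/PE, ratios of 1.84 (1.71 to 1.98) after PBS and 4.37 (3.88 to 4.94) after carboplatin. Carboplatin over PBS under saline gave 0.354 (0.311 to 0.403). These averages hide the clusters: in the PBS saline library a cluster of 74 cells read 596 CPM and one of 22 cells 545 CPM, while the cluster of 1779 cells read 3.71 CPM. Those cells were not sorted apart, and different clusters hold most macrophages in the saline and AngII/PE libraries. Thbs1, which monocytes and macrophages also make, read 4.46 and 3.23 CPM under saline and 36.5 and 21.7 CPM under AngII/PE, ratios of 8.18 (6.88 to 9.78) after PBS and 6.7 (5.34 to 8.52) after carboplatin, at 8.52, 7.57, 16.7 and 18.6% of the fibroblast level. Over the macrophage clusters of at least 100 cells under AngII/PE it ranged from 18.1 to 76.3 CPM after PBS and from 9.76 to 47.3 CPM after carboplatin.

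Of the members compared, 7 of 32, 7 of 31, 4 of 39 and 4 of 40 stood above the highest reference in library order. Besides the 3 genes above these were Acta2 in 3 libraries, Col27a1 and Col4a2 in both saline libraries, Col4a1 with PBS and saline, and Col15a1 and Col16a1 with carboplatin and saline. The type IV chains are at endothelial levels above the fibroblast ones in those libraries, so RNA of endothelial cells cannot be told apart from macrophage RNA for them. Acta2 read 5309 to 10127 CPM in mural-like cells, and the part of mural RNA was not tested. Members under 50 fibroblast UMIs in a library were not compared. Among those, macrophage-like cells held 64.9, 48.5, 66.4 and 75.1% of Col20a1 UMIs in library order. Shares of Col9a3 were 69.8, 64.6, 67.4 and 78.3%, and of Col11a2 61, 55.8, 74.1 and 80.5%. Of all UMIs kept, macrophage-like cells held 32722753 of 48040678, 24440449 of 39630235, 33710637 of 47982341 and 57143147 of 72271962 in library order. The Col20a1 share lay below this share of all UMIs in each library, and those of Col9a3 and Col11a2 lay near it. Carboplatin over PBS in macrophage-like cells left 1 members higher and 2 lower of 13 under saline (1.18% and 2.37% of all genes), and 0 higher and 2 lower of 31 under AngII/PE (0.366% and 1.37%). Col27a1 was lower in macrophage-like cells with AngII/PE after PBS (0.432, interval 0.349 to 0.531), as was Col4a2 (0.47, interval 0.38 to 0.579).

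**Figure D5:**
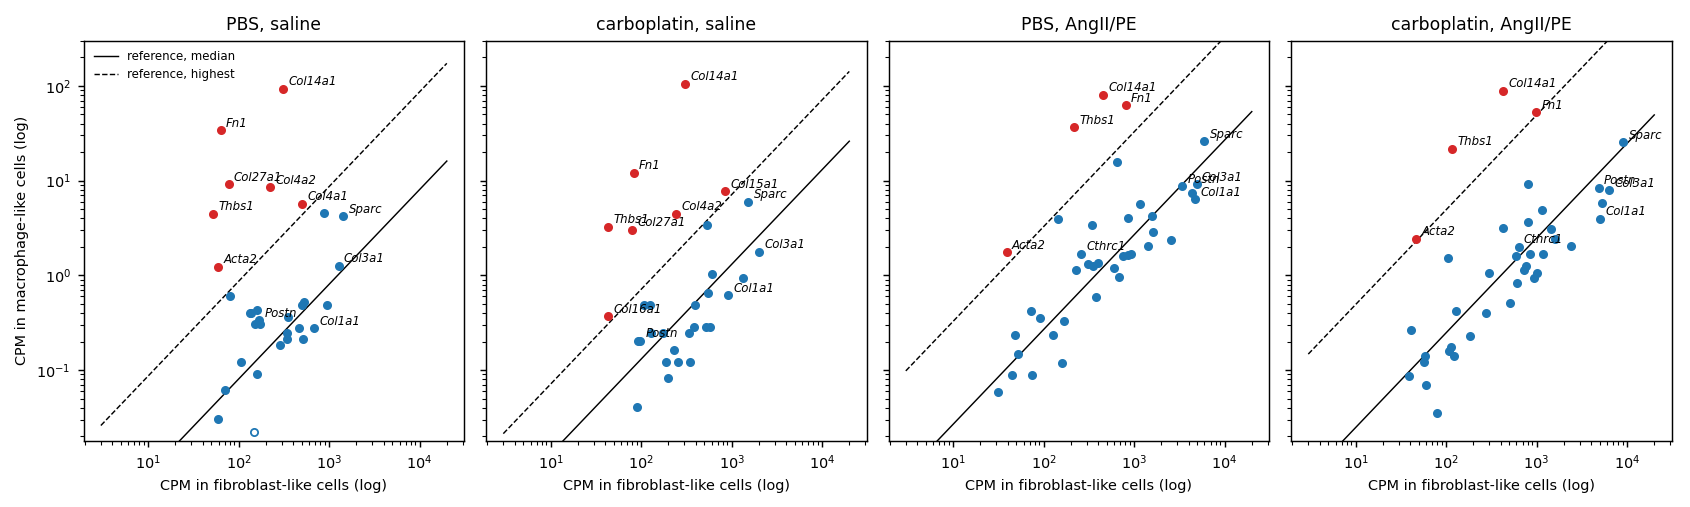
CPM of each member in macrophage-like cells (y axis) against fibroblast-like cells (x axis) of the same library, both on log axes, 1 panel per library. The solid line is the median share of the fibroblast level over the reference genes and the dashed line the highest. Red points lie above it, open points are at 0 UMIs, and Col14a1, Fn1 and Thbs1 are red in all 4 panels.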

How the data were processed

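The deposited files hold raw UMI counts per gene and barcode, 1 matrix per library. Per the file headers they were written by Cell Ranger 7.1.0, while the labels name Cell Ranger 3 with mm10. Reads were made with the 10x 3′ kit 3.1, per the labels. The treatment of intronic reads was not given in the sources used here. Members and gene lists were chosen with earlier results of these data known.

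Cells were kept with under 10% mitochondrial UMIs, fewer than 30000 UMIs and a gene number between 500 and 7000, the limits of the study. SCTransform (Seurat 5.3.0, sctransform 0.4.2, R 4.3.3) took 3000 variable genes, 46 of them members, and 80 components gave clusters at resolution 0.6. Clusters were named from marker lists without members. No doublet caller was run, and leaving out cells with UMIs of another class was an alternative.

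Raw UMIs were summed per class and library and divided by the class total (CPM) in Python 3.11.15 with numpy 2.4.6 and scipy 1.17.1. Libraries kept 3484 to 5669 cells. Ratios carry exact conditional binomial 95% intervals, checked on simulated counts, and shares Clopper-Pearson intervals. With 1 library per group there is no test. The text may name every measured member past 2-fold, the 6 members highest in a class, chain partners, the 16 members that are not collagens, and the 3 widest ratios of each list. Across classes and contrasts 10 alternatives were planned and 2 were added after seeing the data.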

Additional observations from a re-analysis of the deposited data

Results flagged for a closer look

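Acta2 in fibroblast-like cells had a log2 CPM ratio of AngII/PE over saline of -0.62 after PBS and of 1.75 after carboplatin, so the AngII/PE library was below its saline library after PBS and above it after carboplatin. The difference between the contrasts was not tested, since each group is 1 library. The UMIs behind these values were 72, 17, 74 and 76 in library order, and the cell with the most held 41.7%, 52.9%, 36.5% and 15.8% of them.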

How the results depend on the processing

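No paired analysis was possible because each group is 1 library. In fibroblast-like cells the counts of members higher with AngII/PE kept within 1.5 times of 27 under the alternatives run, except 17 after PBS in female-called cells. The count lower (2 in each contrast) was 1 after PBS with a minimum of 200 UMIs and in male-called cells, and after carboplatin 1 with that minimum and 4 in female-called cells. For carboplatin over PBS under saline, 1 member was higher in female-called cells and 12 in male-called ones, against 0, and the 2 lower became 1 with members left out of the variable genes and 0 with 200 UMIs and in female-called cells. Under AngII/PE male-called cells gave 4 higher against 2 and 1 lower against 0. Thbs4 in that contrast had a log2 ratio of -0.07 in female-called cells against 1.21.

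In endothelial-like cells the 7 higher after PBS became 13 with 20 UMIs, 4 with 200 UMIs and 4 in female-called cells. The 5 lower became 3 with cells weighted equally, 1 with 200 UMIs, 1 in female-called cells and 0 in male-called ones. After carboplatin the 4 higher became 7 with 20 UMIs, and the 3 lower became 0 with 200 UMIs and in male-called cells, and 1 with members left out of the variable genes, with at least 1000 genes, without cells of mixed markers, in female-called cells and in cells named alike in both clusterings. With cells weighted equally Col4a4 after PBS had a log2 ratio of 0.27 against -1.12, and Col3a1 for carboplatin over PBS under AngII/PE 0.36 against -1.53.

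In macrophage-like cells the 18 higher after PBS became 7 with 200 UMIs, 8 in female-called cells and 9 in male-called ones, and the 2 lower became 4 with 20 UMIs and 1 in female-called cells. The 19 higher after carboplatin became 7 with 200 UMIs and 11 in female-called cells, and the 0 lower became 2 with 20 UMIs, and 1 at resolution 1.2, in female-called cells and without the low-RNA endothelial-like cluster and the cluster led by Gm42418. The median reference share in macrophage-like cells, itself a median over the 4 libraries, 0.189%, was 0.208% with members left out of the variable genes, 0.183% at resolution 1.2, 0.184% without mixed cells, 0.194% in female-called cells and 0.207% in male-called ones. In endothelial-like cells, 0.345% became 0.321% with at least 1000 genes, 0.248% without mixed cells, 0.251% in female-called cells and 0.22% in male-called ones, 0.325% without those clusters and 0.317% in cells named alike in both clusterings. Libraries differed in this: without mixed cells the endothelial-like share went from 0.256% to 0.115% with carboplatin and saline, and from 0.138% to 0.14% with PBS and saline. Causes were not tested, except that fewer UMIs per class leave fewer members measured.

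With members left out of the variable genes the carboplatin saline fibroblast cluster held 182 cells in place of 70. The log2 ratio of Acta2 after carboplatin was then 0.41 against 1.75. Fibroblast values rest on 70 to 115 cells per library, which limits members under 50 UMIs.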
